A study of Mus musculus with 4 samples.

Results

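The 8 genes described here code for intermediate filament proteins and for the cytolinker that ties them together. The first group is Des, Synm and Nes, the filament genes typical of muscle precursors and muscle. The others are Vim, Lmna, Lmnb1 and Lmnb2, which many cell types use, and Plec, which codes for plectin. They were taken by gene symbol from the 55573 genes of the table. The rule uses no measured value, although earlier results of these data were known when the set was put together. The sequenced RNA was bound to ribosomes and came from primary myoblasts of mice, the dividing precursors of muscle fibres, cultured from enzyme-treated hind-limb muscle and taken on day 2 of proliferation with FGF in the medium. Of the 4 libraries, 2 came from cells labelled WT and 2 from cells labelled eIF5A knockout (KO). Per the study, the floxed gene was deleted with Pax7-CreERT2, a tamoxifen-inducible recombinase made in satellite cells, in mice from which muscle was taken at 3 weeks of age, and the controls were littermates. Cells of the culture that do not descend from Pax7-expressing cells keep the floxed gene. The KO genotype is Pax7 CreERT2/+;eIF5A f/f. For controls the study names Pax7 CreERT2/+ in one place and Pax7 +/+;eIF5A f/f in another, so it is open whether the WT cells carried the recombinase or the floxed alleles. The labels give neither these alleles nor the number of animals behind a library, so the spread between libraries may be technical. All 4 libraries share a treatment with cycloheximide, the drug that arrests elongating ribosomes on mRNA, which lasted 10 min according to the labels and 1 min according to the design text. The titles speak of polysomes, whereas the extraction text describes RNase I digestion and isolation of protected fragments. Values are given in RPKM (reads per kilobase of gene, also divided by a library size that the authors set) and are called ribosome-protected signal.

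Intermediate filaments are rope-like polymers of long coiled-coil proteins and, unlike actin filaments and microtubules, have no polarity. Vimentin is the filament protein of mesenchymal and dividing cells, and myoblasts make it together with desmin before desmin becomes the main filament protein of the muscle fibre, where it links neighbouring Z-discs and ties them to the cell membrane. Nestin and synemin copolymerize with these proteins and have unusually long tails that project from the filament, nestin being typical of precursor cells. The lamins form the meshwork under the inner nuclear membrane. Lmna codes for lamins A and C, and Lmnb1 and Lmnb2 code for the B-type lamins. Plectin bridges filaments to actin, to microtubules, to the nuclear envelope and to adhesion sites. The factor under study, eIF5A, helps ribosomes past stretches that form peptide bonds slowly, of which runs of prolines are the best known.

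Of the 8 proteins, plectin and synemin hold a run of 3 prolines in their longest annotated coding sequence, 1 run each. A run of 3 or more is found in 25.8% of the 9869 tested protein-coding genes with an annotated coding sequence. The codons of both runs are shown because they are the stretches of these genes closest to the best known eIF5A-dependent sequence. They are given 5′ to 3′ on the coding strand with 4 codons to either side, and the capitals mark the proline codons.
Synm, residues 176 to 178 of 1561: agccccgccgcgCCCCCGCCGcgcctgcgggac
Plec, residues 1004 to 1006 of 4691: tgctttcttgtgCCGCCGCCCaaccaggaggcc
The longest proline run is 2 in Nes, Lmna, Lmnb1 and Lmnb2 and 1 in Vim and Des. The table counts reads per gene, so no signal could be placed at these codons.

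The libraries held between 642429 and 704006 reads recovered from the RPKM values. Mitochondrial rRNA genes held 39.1% and 30.1% of them in WT and 15.0% and 18.5% in KO, and miRNA genes 16.8% in WT library 2 and between 2.31% and 4.30% in the others. Protein-coding genes took between 33.9% and 41.5% of the reads in WT and between 59.2% and 65.4% in the KO-labelled libraries. The library sizes behind the RPKM values were 602863 and 471136 in WT and 906990 and 807705 in the KO-labelled libraries. RPKM was thus not scaled to the recovered reads, and the divisors differed between the groups. Eif5a itself had 34.9 and 65.2 RPKM in WT and 60.3 and 59.4 RPKM in the KO-labelled libraries. The knockout could thus not be seen in the targeted gene here, and each direction is that of the KO-labelled libraries. The paper reports the deletion from RT-qPCR and immunostaining of satellite cells and shows a western blot of eIF5A. Those are other measures than whole-gene signal in cultured myoblasts. The part of the differences between libraries in the values below was not tested. Across protein-coding genes the log2 signal of both WT libraries had a Pearson correlation of 0.779 and that of both KO-labelled libraries 0.891. Replicates differed by more than counting error, with a chi-square per degree of freedom of 5.60 in WT and 4.69 in KO. All 10 myoblast markers had reads in both WT libraries. Myod1, the gene of the myogenic factor MyoD, had means of 128.7 ± 15.9 RPKM in WT and 64.2 ± 22.1 RPKM in KO (SD, n = 2 each), without overlap.

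The 8 genes together took 0.4997% and 0.575% of the protein-coding reads in WT and 0.622% and 0.579% in the KO-labelled libraries. Of these genes, 7 reached a mean of 1 RPKM and were tested, and Synm did not. By limma on log2(RPKM + 1), 0 of the 7 passed an adjusted p of 0.05 as lower and 0 as higher, where 0.0968% of the 11363 tested genes were lower and 0.0088% higher. With an unadjusted p of 0.05 as the limit, 1 was lower, which was Des, and 0 were higher, against 4.46% and 2.86% of all tested genes. These shares depend on the scaling, since with libraries scaled to the same sum of reads 169 of 11327 genes were lower and 1683 higher at that limit. The few adjusted calls over all genes were lost in 13 of the 16 alternative settings. The groups did not overlap for Des, which was lower, and for Vim, which was higher, and overlapped for the other 6. Among all tested genes 20.3% were lower and 20.1% higher without overlap, so the 1 gene of each direction is close to the background. The median log2 fold change of the 7 genes was 0.08, beside 0.00 (0.000259) for all tested genes.

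**Figure D1:**
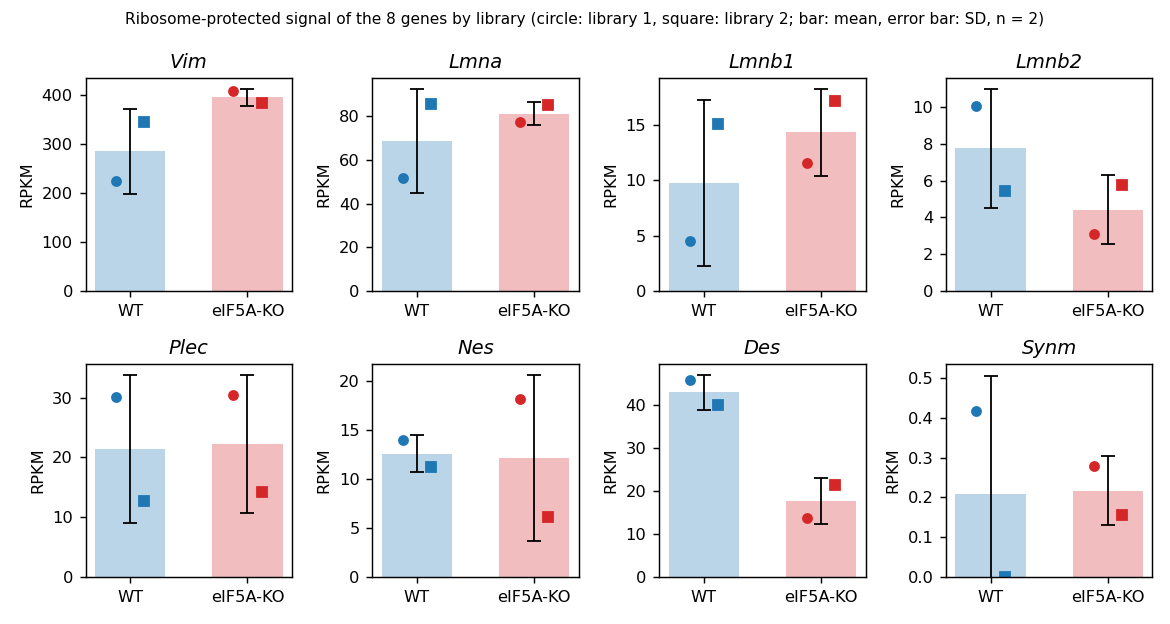
Ribosome-protected signal in RPKM (y axes, each from 0) of the 8 genes in WT and in the libraries labelled eIF5A-KO; points are libraries, bars the mean and error bars the SD (n = 2). Des has both KO points (13.8 and 21.4 RPKM) below both WT points (46.0 and 40.1 RPKM), Vim has them above, and in the other panels the groups overlap.

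Des had the log2 fold change furthest from 0 among the 7 tested genes. It codes for desmin and lies on chromosome 1 (GRCm38, 75360329 to 75368579, plus strand; ENSMUSG00000026208), with 9 exons and a coding sequence between 75360418 and 75367047. WT libraries gave 46.0 and 40.1 RPKM, from 104 and 71 reads. The KO-labelled libraries gave 13.8 and 21.4 RPKM, from 47 and 65 reads. Both KO values were thus below both WT values, although WT library 2 and KO library 2 differed by only a few reads before scaling. The mean was 43.0 ± 4.11 RPKM (SD, n = 2) in WT. At 17.6 ± 5.40 RPKM (SD, n = 2), the mean of the KO-labelled libraries was 0.409 times as high. The log2 fold change was -1.27 (standard error 0.43, 95% interval -2.32 to -0.22), with limma's unadjusted p at 0.0257 and its adjusted p at 0.665. Run on the recovered reads, limma-voom gave -1.33, its unadjusted p being 0.00551 and its adjusted p 0.306. In that test 6.85% of genes were lower and 3.22% higher before adjustment, and 0.392% were lower afterwards. The difference of Des therefore did not pass the threshold over all genes. With libraries scaled to the same sum of reads the log2 fold change of Des was -0.68 while the median of all tested genes was 0.49. The antisense gene Gm15179, whose exons overlap those of Des (largest single overlap 220 bases), was listed at 0 in all 4 libraries.

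Neither of the other muscle filament genes had a difference that could be resolved, and neither was tested against Des. Nes, the nestin gene, lies on chromosome 3 (87971078 to 87980451, plus strand; ENSMUSG00000004891; 4 exons, coding sequence from 87971203 to 87980027). It had 14.0 and 11.2 RPKM in WT and 18.2 and 6.17 RPKM in the KO-labelled libraries. The highest and the lowest value were thus both from KO-labelled libraries, with 106 and 32 reads. Its means were 12.6 ± 1.92 and 12.2 ± 8.51 RPKM (SD, n = 2 each). On the log2 scale the difference was -0.21 (standard error 0.56, 95% interval -1.58 to 1.17, adjusted p 0.916 by limma). Without KO library 2 the value was 0.51 and without KO library 1 it was -0.92, so no direction can be given for Nes.

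Synm, the synemin gene (chromosome 7, 67730160 to 67759742, minus strand; ENSMUSG00000030554; 4 exons, coding sequence from 67733230 to 67759628), was close to the limit of detection. The WT libraries held 2 and 0 of its reads and the KO-labelled libraries 2 and 1, over a gene length of 7933 bases. These are 0.418 and 0 RPKM against 0.278 and 0.156 RPKM. All 4 values were below a floor of 3 reads, so no fold is given. Exons of Ttc23 and Gm45102 on the other strand overlap Synm, and the counting is not stated to use strand.

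Vim was the strongest of the 8 genes in every library. Located on chromosome 2 (13573927 to 13582826, plus strand; ENSMUSG00000026728; 9 exons, coding sequence from 13574432 to 13582511), it ranked from 20 to 29 by RPKM among protein-coding genes. WT gave 223 and 345 RPKM, from 639 and 770 reads. For the KO-labelled libraries the values were 407 and 382 RPKM, from 1751 and 1464 reads. The KO libraries lay close together and above both WT libraries, and the gap between the WT libraries was wider than that from WT library 2 to either KO library. The means were 284 ± 85.6 and 395 ± 17.6 RPKM (SD, n = 2 each). On the log2 scale the difference was 0.51 (standard error 0.53, 95% interval -0.80 to 1.81, adjusted p 0.761 by limma). Without WT library 1 it was 0.19, without WT library 2 it was 0.82, and after quantile normalization 1.26, with an unadjusted p of 0.0343 in the last. With the same sum of reads it was 1.12, beside the median of 0.49 over all tested genes.

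Vim and Des stood further apart in the KO-labelled libraries when compared within a library, where the library size cancels. The ratio of their RPKM values was 4.86 and 8.58 in WT and 29.5 and 17.8 in the KO-labelled libraries. Counted as reads, Des made up 14.0% (95% Wilson interval 11.7 to 16.7) and 8.44% (6.75 to 10.5) of the reads on both genes in WT. The share in the KO-labelled libraries was 2.61% (1.97 to 3.46) and 4.25% (3.35 to 5.38). The intervals of the WT libraries did not overlap those of the KO-labelled libraries. Those of the WT libraries did not overlap each other either, so replicates also differed by more than counting error. The pair was singled out with the values known, and no p is given for it. Since Des was lower and Vim higher without overlap, their ratios and shares had to separate the groups. That separation is thus no further result.

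**Figure D2:**
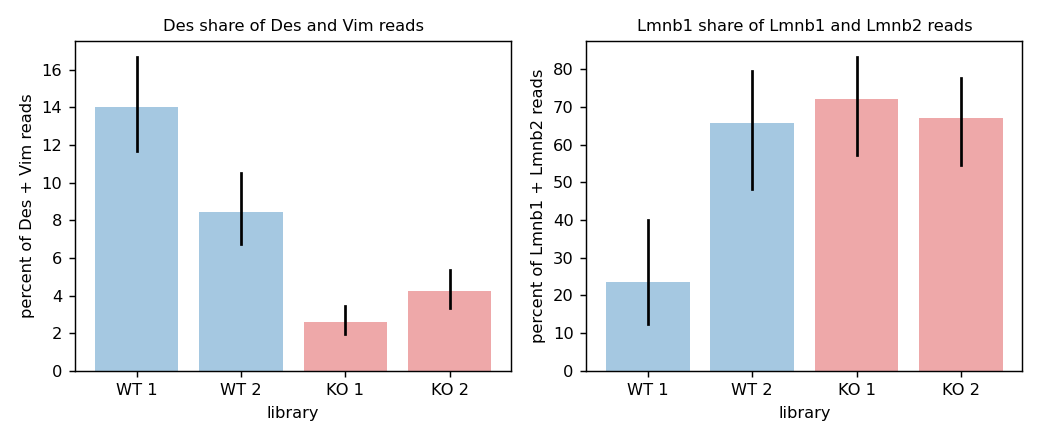
Share of reads in each library (percent, y axes from 0; x axes, the 4 libraries) that fell on Des among Des and Vim reads (left) and on Lmnb1 among Lmnb1 and Lmnb2 reads (right), with 95% Wilson intervals for counting error. The Des share is 14.0% and 8.44% in WT against 2.61% and 4.25% in the KO-labelled libraries, while on the right WT library 1 (23.5%) stands apart from the other 3 libraries.

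Lmna was the second strongest gene in all 4 libraries and had little spread in the KO-labelled libraries. It lies on chromosome 3 (88480147 to 88509956, minus strand; ENSMUSG00000028063), and the longest coding sequence, that of prelamin A, has 12 exons and spans 88482077 to 88503103. Values for whole genes do not separate lamin A from lamin C. In WT it had 52.0 and 85.8 RPKM (183 and 236 reads). The KO-labelled libraries gave 77.6 and 85.0 RPKM (411 and 401 reads). WT library 1 was low and the other 3 libraries were alike. The means were 68.9 ± 23.9 and 81.3 ± 5.25 RPKM (SD, n = 2 each). The log2 fold change was 0.28 (standard error 0.47, 95% interval -0.88 to 1.44, adjusted p 0.858 by limma), and it was -0.078 without WT library 1. The ratio of Vim to Lmna was 4.30 and 4.02 in WT and 5.24 and 4.49 in the KO-labelled libraries, a far narrower range than that of Vim to Des.

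The B-type lamin genes differed from each other in sign, with few reads behind both. Lmnb1 (chromosome 18, 56707813 to 56753424, plus strand; ENSMUSG00000024590; 11 exons, coding sequence from 56708113 to 56752645) had 4.48 and 15.0 RPKM in WT, from 8 and 21 reads. In the KO-labelled libraries it had 11.5 and 17.1 RPKM, from 31 and 41 reads. WT library 1 was the low one again, and WT library 2 lay between both KO libraries. The difference was 0.69 on the log2 scale (standard error 0.60, 95% interval -0.79 to 2.16, adjusted p 0.730 by limma). Leaving out WT library 1 made it -0.090 and leaving out WT library 2 made it 1.46.

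Lmnb2 (chromosome 10, 80901203 to 80918245, minus strand; ENSMUSG00000062075; 12 exons, coding sequence from 80902862 to 80918218) had 10.1 and 5.45 RPKM in WT, from 26 and 11 reads. In the KO-labelled libraries it had 3.09 and 5.78 RPKM, from 12 and 20 reads. WT library 1 was the high one here, and the groups overlapped through WT library 2. The difference was -0.68 on the log2 scale (standard error 0.47, 95% interval -1.84 to 0.47, adjusted p 0.697 by limma). It was -0.29 without WT library 1 and -0.32 without KO library 1. Lmnb1 took 23.5% (95% Wilson interval 12.4 to 40.0) of the B-type lamin reads in WT library 1 and 65.6% (48.3 to 79.6) in WT library 2. The share was 72.1% (57.3 to 83.3) and 67.2% (54.7 to 77.7) in the KO-labelled libraries. The balance of B-type lamins was thus alike in 3 libraries and different in WT library 1.

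The 24 tested cell cycle genes, a list of interest because dividing cells rebuild their lamina, lay above 0 in 23 cases and below in 1, and their median log2 fold change was 0.80. Their summed signal was 93.7 and 212 RPKM in WT and 259 and 233 RPKM in the KO-labelled libraries, with WT library 1 low as it was for Lmnb1. Of them 14 were higher without overlap and 0 lower, beside the 20.1% and 20.3% of all tested genes. By limma, 2 were higher at an unadjusted p under 0.05, beside 2.86% of all tested genes, and 0 at an adjusted p. Ccna2 and Bub1 reached the mean of 1 RPKM only through the KO-labelled libraries, so the filter favoured values above 0 for them. Whether this list has a part in the Lmnb1 values was not tested.

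Plec (chromosome 15, 76170974 to 76232574, minus strand; ENSMUSG00000022565; 33 exons in the transcript with the longest coding sequence, which spans 76172173 to 76206138) separated the libraries by number and not by genotype. In WT it had 30.1 and 12.7 RPKM (329 and 108 reads). The KO-labelled libraries gave 30.5 and 14.1 RPKM (501 and 207 reads). Library 1 was 2.38 times as high as library 2 in WT and 2.16 times in KO, and the group means were 21.4 ± 12.4 and 22.3 ± 11.6 RPKM (SD, n = 2 each). The log2 fold change was 0.08 (standard error 0.60, 95% interval -1.39 to 1.56, adjusted p 0.971 by limma). It was 0.68 without WT library 1, 0.61 without KO library 2, -0.44 without KO library 1 and -0.51 without WT library 2. With the replicate number as a block it was 0.08 with a standard error of 0.42. Exons of Parp10 overlap those of Plec on the same strand, the largest single overlap being 205 bases.

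**Figure D3:**
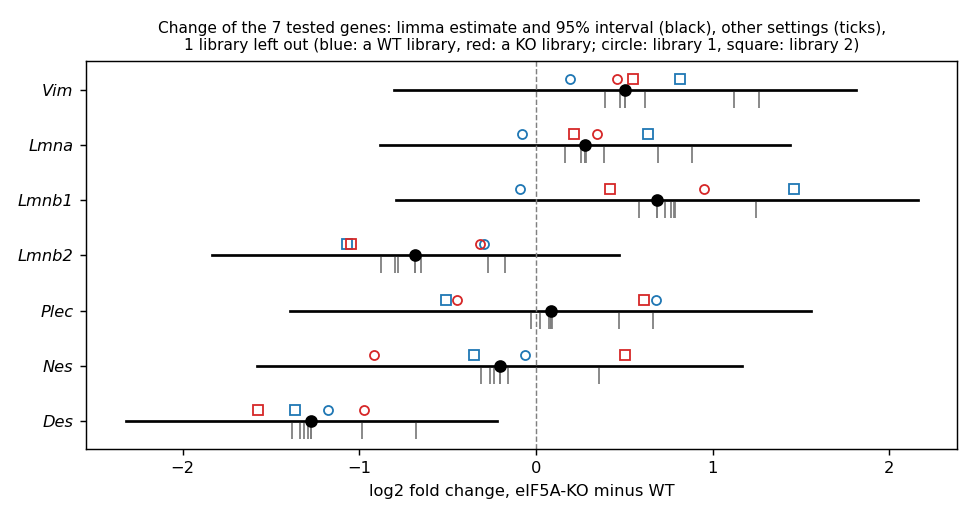
Log2 fold change (x axis, KO-labelled libraries minus WT) of the 7 tested genes (y axis): black points and lines are limma's estimate with its 95% interval, grey ticks the other settings, and open symbols the fits that left out 1 library. The interval of Des (-2.32 to -0.22) lies below 0 before adjustment over all genes, and those of the other 6 include 0.

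The muscle genes were then set against the general ones, the comparison for which the 8 genes were put together. Synm, though below the floor of 3 reads, was kept in the muscle mean. In each library the mean of log2(RPKM + 1) of the muscle genes minus that of the general genes was -1.54 and -2.40 in WT and -2.33 and -2.97 in the KO-labelled libraries. WT library 2 and KO library 1 overlapped in this measure, and the pooled SD between replicates was 0.54. The mean over the KO-labelled libraries minus that over WT was -0.68. The difference was -0.25 without WT library 1, -0.35 without KO library 2, -1.002 without KO library 1 and -1.11 without WT library 2. With Synm left out, an alternative chosen after seeing the data, the values were -0.14 and -0.90 in WT and -1.09 and -1.82 in the KO-labelled libraries. The groups then did not overlap, and the difference was -0.93 beside a pooled SD of 0.53. Summed, the muscle genes gave 60.3 and 51.4 RPKM in WT. The KO-labelled libraries had sums of 32.3 and 27.8 RPKM, again without overlap, with Des the larger part in every library except KO library 1, where it was Nes. Both tested muscle genes were below 0 (Des -1.27, Nes -0.21), and Nes had no resolved direction.

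Levels were ordered per length within each group. In WT the order of the means was Vim, Lmna, Des, Plec, Nes, Lmnb1, Lmnb2 and Synm. In the KO-labelled libraries it was Vim, Lmna, Plec, Des, Lmnb1, Nes, Lmnb2 and Synm. Vim was first and Lmna second in all 4 libraries, but in WT library 1 Lmna was only 1.13 times as high as Des. In WT the ranges of neighbours overlapped from Plec down to Lmnb2, and in the KO-labelled libraries from Plec down to Nes. Des was the third gene in both WT libraries, and in the KO-labelled libraries it was the fifth and the third. The gene length used for RPKM holds all annotated exons and was between 1.15 (Nes) and 3.39 (Vim) times the coding length, so these levels are not densities per codon.

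Across the libraries, Vim and Lmna had the most similar pattern of the tested pairs, with a root-mean-square distance of 0.14 between their centred log2 values, followed by Des and Lmnb2 with 0.36 and Nes and Plec with 0.37. The widest distances were those of Lmnb1 to Plec and of Lmnb1 to Des, both 1.16. These distances rest on 4 libraries that the genes share and describe only these. Base composition also differed within the set. The coding sequences of Lmna, Lmnb2 and Plec were 62.2%, 62.2% and 61.6% GC, that of Des 59.6%, and those of Vim, Lmnb1, Nes and Synm 56.5%, 56.2%, 55.3% and 56.4%, beside a median of 53.2% in tested protein-coding genes. After a trend of fold change on coding GC was taken out, values were -0.98 for Des, -0.27 for Lmnb2, 0.47 for Plec, 0.62 for Vim and 0.69 for Lmna. The adjusted p of these genes lay between 0.710 and 0.899 by limma in that fit.

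The 250 bases upstream of the RefSeq transcription start (GRCm38.p6) were looked at for Des and Vim, the pair whose groups did not overlap, for the E-box CANNTG. This is the core letters bound by MyoD and related factors, it reads the same on both strands, and E-boxes are in capitals below. The sequences are given 5′ to 3′ on the strand of the gene, at chr1:75360042-75360291 for Des and chr2:13574061-13574310 for Vim, both on the plus strand.
Des: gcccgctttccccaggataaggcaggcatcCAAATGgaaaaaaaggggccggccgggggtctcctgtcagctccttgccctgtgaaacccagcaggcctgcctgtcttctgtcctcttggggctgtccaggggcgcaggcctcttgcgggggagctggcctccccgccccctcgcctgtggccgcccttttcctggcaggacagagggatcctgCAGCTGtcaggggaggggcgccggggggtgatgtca
Vim: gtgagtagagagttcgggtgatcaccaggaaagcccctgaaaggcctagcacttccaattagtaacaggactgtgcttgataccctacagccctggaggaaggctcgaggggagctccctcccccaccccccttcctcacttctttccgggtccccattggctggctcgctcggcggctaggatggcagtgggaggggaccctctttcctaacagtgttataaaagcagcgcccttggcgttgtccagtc
The window of Des holds 2 E-boxes, beginning 220 and 36 bases before the start, and that of Vim holds 0. Of all 32851 windows of this length, 66.2% hold at least 1 and 31.8% hold 2 or more. Among the other genes, Nes and both starts of Lmna had 0, Synm had 1, and the starts of Lmnb2 had 4 and 1. Of the 8 genes, 6 had an entry, and Plec and Lmnb1 did not. A match is only a match of letters and was not set against binding data.

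Genes that work with these filaments were read from the same fit, and in none of the lists did a gene pass at an adjusted p under 0.05. Most of the other intermediate filament genes had few reads or none. Of 23 listed, among them keratins, neurofilaments and glial filament protein, 10 were at 0 in all 4 libraries, Krt8 and Krt18 included. Those tested were 4, all with values below 0 and a median of -0.79. Sync and Krt20, with 7 and 5 reads in total, reached the mean of 1 RPKM only through WT. The filter thus favoured values below 0 for both. Iffo1 had 73 reads and Iffo2 48 over all libraries, and no other gene of the list had more than 10. Iffo1 had 8.45 and 4.85 RPKM in WT and 2.32 and 4.13 RPKM in KO, a log2 fold change of -0.85 (adjusted p 0.682 by limma). Iffo2 had -0.71.

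All 23 listed partners of the nuclear lamina were tested, 14 above 0 and 9 below, with a median of 0.22. The highest were Kpna2, an importin alpha, with 1.78 and Tor1a, the ATPase torsin A of the nuclear envelope lumen, with 1.15. Tor1a had 4.16 and 8.51 RPKM in WT and 15.5 and 13.7 RPKM in the KO-labelled libraries, and was the gene of this list with an unadjusted p under 0.05 (0.0423, adjusted p 0.672 by limma). Kpna2 was at 0 in WT library 1 and at 5.91 RPKM in WT library 2, against 8.83 and 7.33 RPKM. The lowest were Syne3, the gene of nesprin 3, which connects plectin to the outer nuclear membrane, with -0.87, and Tmem201 with -0.76.

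Of 15 plakins and anchoring proteins 8 were tested, 2 above 0 and 6 below, with a median of -0.11. Pkp4, a plakophilin-related protein of cell junctions, had 9.88 and 4.83 RPKM in WT and 1.16 and 2.39 RPKM in the KO-labelled libraries. Its log2 fold change was -1.56 with an unadjusted p of 0.0188 (adjusted p 0.660 by limma). Ppl, the periplakin gene, had -0.83, with WT library 2 at 20.02 RPKM and the other 3 libraries between 4.64 and 7.54 RPKM. The integrin gene Itga6 had 0.48 and the tetraspanin gene Cd151 0.40. Of the desmosomal genes, Dsp and Pkp1 were at 0 in all 4 libraries.

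The desmin partners, chaperones, Z-disc and costamere proteins, gave no common direction. Of 28 listed 17 were tested, 9 above 0 and 8 below, with a median of 0.07 and values between -0.96 and 0.63. Vcl, which codes for vinculin, had 11.7 and 12.2 RPKM in WT and 18.8 and 19.2 RPKM in the KO-labelled libraries, without overlap and with a log2 fold change of 0.63 (adjusted p 0.697 by limma). Trim32, a ubiquitin ligase that acts on desmin, had 0.59. The talin gene Tln2 had -0.96 and Klhl24, a substrate receptor of ubiquitin ligases, -0.48. Of the list, 0 genes had an unadjusted p under 0.05.

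**Figure D4:**
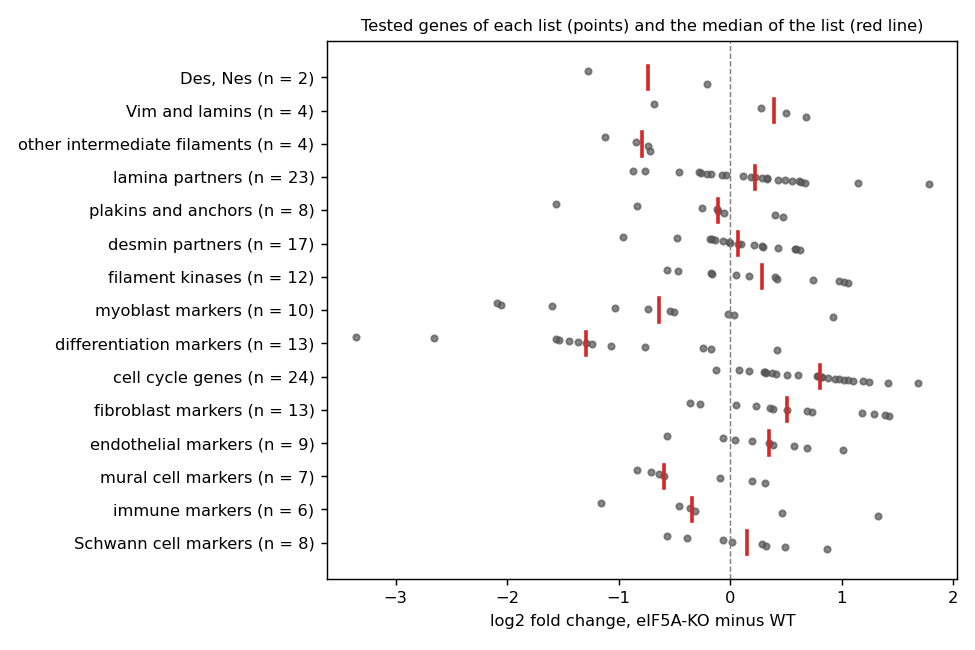
Log2 fold change (x axis, KO-labelled libraries minus WT) of the tested genes of each list (points) with the median of the list (red line); n is the number of genes tested. The differentiation markers have the lowest median (-1.30) and the cell cycle genes the highest (0.80), with the desmin partners (0.07) and lamina partners (0.22) near 0.

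Most markers of the muscle lineage lay on the side of Des. Of 10 myoblast markers 8 were below 0, with a median of -0.64. Without overlap 5 were lower and 1 higher, and 3 were lower at an unadjusted p under 0.05 by limma. Their summed signal was 309.5 and 271 RPKM in WT and 199.6 and 217 RPKM in the KO-labelled libraries. Of 13 tested differentiation markers 12 were below 0, with a median of -1.30. Without overlap 7 were lower and 1 higher, and 4 were lower at an unadjusted p under 0.05 by limma. Among all tested genes 20.3% were lower and 20.1% higher without overlap, and 4.46% were lower at that p. Neb, Mybph, Ckm, Myl1 and Tnnt3 reached the mean of 1 RPKM only through WT, as did Myf5 among the myoblast markers. The filter thus favoured values below 0 for them, and Mybph, Ckm, Myl1 and Tnnt3 had only 6 to 9 reads in total. The summed signal of the differentiation markers in WT was 347 RPKM in library 1 but 84.4 RPKM in library 2. In KO it was 48.8 and 48.5 RPKM, with Tnnc2 at 0 in all 4 libraries. Their strongest gene, the skeletal actin gene Acta1, had 128.5 and 41.5 RPKM in WT and 30.1 and 25.8 RPKM in the KO-labelled libraries. Des and Acta2 are also made by mural cells of vessels. The 7 tested mural markers had a median of -0.59, with 5 below 0, and sums of 172 and 134 RPKM against 107 and 119 RPKM. Without overlap 4 of the mural markers were lower and 1 higher, and 0 had an unadjusted p under 0.05 by limma. Acta2, the strongest mural marker, had -0.59.

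Vimentin is also made by fibroblasts, endothelial cells, leukocytes and Schwann cells. Of 13 tested fibroblast markers 11 were above 0, with a median of 0.51, and the summed signal was 647 and 434 RPKM in WT and 1092 and 518 RPKM in the KO-labelled libraries. Dcn, the decorin gene and strongest of this list, had 239.5 and 126 RPKM in WT and 459.9 and 171 RPKM in the KO-labelled libraries. Of 9 tested endothelial markers 7 were above 0, with a median of 0.35 and sums of 199 and 236 RPKM against 228 and 223 RPKM. Their strongest gene, Cdh5, had a log2 fold change of 0.19. The 6 tested immune markers had a median of -0.34, with 2 above 0 and sums of 49.1 and 81.8 RPKM against 68.0 and 54.5 RPKM, and Itgam at 0, and their strongest gene, Cd14, had 0.47. The 8 Schwann cell markers had a median of 0.15, with 5 above 0 and sums of 65.7 and 23.5 RPKM against 51.3 and 30.9 RPKM, and the strongest, Ngfr, had -0.39. Without overlap, 5 fibroblast, 5 endothelial, 2 immune and 0 Schwann cell markers were higher, beside 20.1% of all tested genes. Lower without overlap were 1, 0, 2 and 0 in the same order, beside 20.3%. At an unadjusted p under 0.05 by limma, 1, 1, 1 and 0 were higher and 0, 0, 1 and 0 lower, beside 2.86% and 4.46%. The part of any of the cell type lists in the values of Vim or Des was not tested. In bulk libraries, fewer cells of a type and less signal per cell cannot be told apart.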

How the data were processed

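The authors removed low-quality, rRNA and tRNA reads (mitochondrial rRNA genes kept reads), mapped with TopHat2 to mm10 with Ensembl 97 and counted per gene with HTSeq (versions not given in the sources used here); strand is not stated. The deposited values are RPKM per library. RPKM times gene length gave whole multiples of 1 step for 100% of values above 0 (tolerance 0.001 reads), so reads were recovered, between 642429 and 704006 per library. Of the gene identifiers, 99.7% were found in GENCODE M21 (GRCm38), which supplied exons and coding sequences, and promoters came from RefSeq. No RNA abundance was used, so translation efficiency was not computed.

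Genes averaging 1 RPKM or more were tested with limma 3.58.1 (R 4.3.3; lmFit, eBayes with trend=TRUE) on log2(RPKM + 1), which understates changes of low genes, two-sided, with Benjamini-Hochberg adjustment over all 11363 genes; 0.05 was the threshold. With 2 libraries a group, an exact permutation test cannot give a p below 0.333. Only counting error enters the 95% Wilson intervals and the 3-read floor. All 8 genes are named; of each related list, the 2 lowest and 2 highest tested genes with at least 20 reads; of each marker list, the strongest; and the 3 genes most like Des and Vim in pattern. A few other genes are named because they lay at 0, reached the filter through 1 group only or stand in more than 1 list. Members and lists were chosen with earlier results of these data known. The scripts were tested on simulated data.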

Additional observations from a re-analysis of the deposited data

How the results depend on the processing

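None of the 7 tested genes passed an adjusted p of 0.05 under any of the 16 alternatives, and 105 of the 112 alternative values kept their sign. Des was below 0 in all 16, between -1.57 and -0.68, with adjusted p from 0.306 to 0.925 and an unadjusted p under 0.05 in 12. Vim was above 0 and Lmnb2 below 0 in all 16. Settings that change only the genes tested or the variance model repeat the fold change, so no sign could turn in them. These were the gene filters, the fit of protein-coding genes only, trend=FALSE and the replicate block. For Des and Vim, whose groups did not overlap, leaving out a library could not turn the sign either. The sign turned for Nes with the same sum of reads (0.36) and without KO replicate 2 (0.51). It turned for Plec when protein-coding reads were scaled to 1 sum (-0.027), without WT replicate 2 (-0.51) and without KO replicate 1 (-0.44), and without WT replicate 1 for Lmna (-0.078) and Lmnb1 (-0.090). Scaling moved all genes (median 0.49 with the same sum of reads and -0.093 over protein-coding reads), so Nes stayed below and Plec above the median gene there. For the fits that left out a library the cause was not tested. A fit without 1 library assumes that the lone library varies like the other group. Leaving out 1 library each, values ran from 0.19 to 0.82 for Vim, -0.92 to 0.51 for Nes, -1.57 to -0.97 for Des, -0.078 to 0.63 for Lmna, -0.090 to 1.46 for Lmnb1, -1.07 to -0.29 for Lmnb2 and -0.51 to 0.68 for Plec. The difference of muscle and general genes ran from -1.11 to -0.25. Without Synm, an alternative chosen after seeing the data, it was -0.93. The replicate block left the fold changes of the 7 genes as they were, none of them called in either fit, and took the adjusted calls over all genes from 11 lower and 1 higher to 0 and 0 (Des -1.27, unadjusted p 0.0353, adjusted p 0.667 by limma). The libraries share only a number, the deviations of same-numbered libraries having a correlation of 0.06. Depth limits Synm (5 reads), Lmnb2 (69) and Lmnb1 (101).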

Other observations

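The kinases and the cyclin that act on intermediate filaments and lamins were tested in full, 8 of 12 above 0 and 4 below, with a median log2 fold change of 0.29. The highest were Aurkb, the gene of Aurora B, which phosphorylates vimentin and desmin in dividing cells, with 1.06, and Ccnb1, the cyclin partner of the kinase that opens the lamina in mitosis, with 1.03. Ccnb1 had 1.97 and 4.53 RPKM in WT and 8.89 and 5.87 RPKM in the KO-labelled libraries. Of the 12 genes 6 were higher without overlap and 1 lower, beside 20.1% and 20.3% of all tested genes, and 4 of those 6 (Cdk1, Aurkb, Plk1 and Ccnb1) also stand in the cell cycle list. The lowest were Akt1 with -0.56 and Prkaca, a catalytic subunit of protein kinase A, with -0.46. None of the 12 had an unadjusted p under 0.05 by limma.

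Among 3355 protein-coding genes with at least 100 reads, the patterns nearest to that of Des over the 4 libraries were those of Fam120a, Lrp10 and Epn1, at root-mean-square distances of 0.04, 0.09 and 0.10 between centred log2 values. Fam120a had 39.6 and 34.9 RPKM in WT and 12.7 and 18.7 RPKM in the KO-labelled libraries. Nearest to Vim were Usp4, Dnaja2 and Cdc73, at 0.01, 0.03 and 0.03. With 4 points, such a likeness describes these libraries only.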
